A study of Mus musculus with 27 samples.

Results

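In hepatocytes of 9 inbred mouse strains, 103 protein-coding genes were expressed in at least 1 strain and silent in at least 1 other. They were chosen by their measured levels, out of 43346 genes in the deposited table, of which 21474 are protein-coding in the GENCODE M21 annotation. A gene was called expressing in a strain when the mean of its 3 libraries was 5 CPM or more (counts scaled to a library total of 1000000), and silent when each of the 3 libraries held 3 or fewer counts. A strain that met neither limit for a gene is called between. Symbols that start with Mup, Cyp, Ces, Serpina, Hist, Zfp, Rpl, Rps, H2-, Ugt, Sult or C1s were left out by the rule. It thereby left out 9 protein-coding genes that met both limits, among them Sult1e1, silent in PWK/PhJ, and Mup15, silent in A/J, NZO/HlLtJ and CAST/EiJ. Of the 8780 protein-coding genes that reached 5 CPM in a strain and had none of those prefixes, the 103 genes are 1.17%. Since the rule used the level of each gene in every strain, strain differences of these genes are described here with no test.

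The study sequenced poly-A RNA from hepatocytes of female mice aged 12 weeks, as one arm of a study that also mapped chromatin marks and methylated DNA. The 27 libraries, 3 for each strain, came from the laboratory strains A/J, C57BL/6J, NZO/HlLtJ, 129S1/SvImJ, NOD/ShiLtJ and DBA/2J, from the wild-derived WSB/EiJ, and from PWK/PhJ and CAST/EiJ, which derive from wild mice of other subspecies. No mouse was treated, and the labels name the libraries of a strain biological replicates. Totals ran from 17015956 to 35078511 counts, so that 3 counts were worth 0.0855 to 0.176 CPM. CPM does not correct for gene length, and levels are therefore set side by side between strains and not between genes.

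Inbred strains are homozygous at nearly every locus, and all mice of a strain carry the same alleles. A gene may therefore be transcribed in the liver of some strains and not of others when its promoter, an enhancer, the gene itself or a regulator differs between them. Hepatocytes are known for genes of metabolism, plasma proteins and detoxification, and some of the genes described here are better known from other organs or cells, such as kidney, brain, skin, gut or lymphocytes. The labelled cell type was checked against 10 hepatocyte markers, all of them detected, whose summed level was 124600 to 230800 CPM in a library. Markers of Kupffer cells, the macrophages of the liver, summed to 39.5 to 388 CPM and those of endothelial cells to 62.1 to 591 CPM, in both lists highest in the PWK/PhJ library of replicate 1. Those of T and NK cells summed to at most 1.31 CPM and those of B cells to at most 1.16 CPM, and none of the 103 genes was on any of these lists. In such bulk RNA, fewer cells of a type and less RNA per cell cannot be told apart.

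Across the 103 genes and 9 strains there were 927 combinations, of which 306 (33.0%) were silent, 190 (20.5%) were expressing and 431 (46.5%) lay between. Only 4 genes had no strain between: Wdr72, Ubash3a, Baiap2l2 and Frem2. Under these limits 43 genes were silent in a single strain and 18 in exactly 2. A strain between could be nearly as low as a silent one. These counts therefore do not show in how many strains a gene was off. Mybl2, silent in 129S1/SvImJ alone with 2, 3 and 1 counts, had 8, 1 and 3 counts in DBA/2J. On the side of expression, 65 genes reached 5 CPM in a single strain, and 1 gene, Gm10184, did so in 7. There were 93 different patterns of the 3 states, and 87 of them were held by a single gene. The heat map of the genes named in the text shows this scatter, in which the 3 libraries of a strain mostly share a shade.

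**Figure D1:**
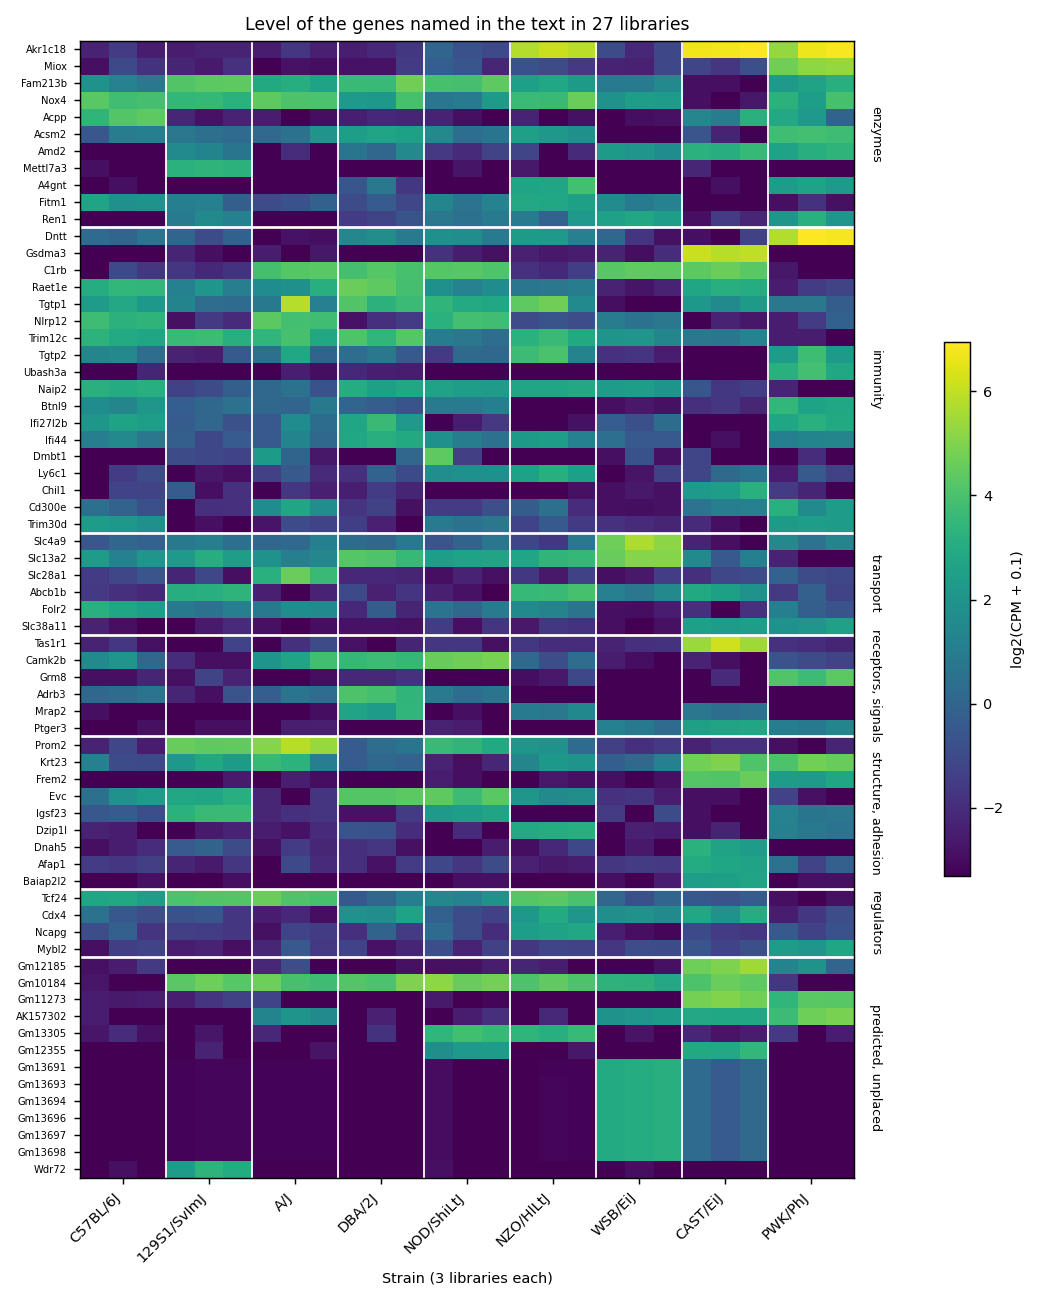
Levels of the genes named in the text (rows, ordered by role and then by their highest strain mean) in the 27 libraries (columns, 3 for each strain), as log2(CPM + 0.1). Dark cells are at or near 0, and single bright blocks 3 libraries wide are genes that reached 5 CPM in a single strain.

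The number of silent genes ran from 29 in NZO/HlLtJ to 39 in WSB/EiJ, with 35 in C57BL/6J, on which the reference genome is built. The 6 predicted genes from Gm13691 to Gm13698, described below, share the same counts, and taken once they leave 24 silent genes in NZO/HlLtJ, 30 in C57BL/6J and 39 in WSB/EiJ. The number of expressing genes ran from 11 in C57BL/6J to 35 in CAST/EiJ, with 27 in PWK/PhJ. Genes expressing in 1 strain alone were spread unevenly: 20 were of CAST/EiJ, 10 of PWK/PhJ, 9 of WSB/EiJ, 8 of NZO/HlLtJ and 1 of A/J. The 6 copies are among those of WSB/EiJ, which has 4 when they are taken once. With TMM-adjusted library sizes 6 of the 103 genes no longer met the rule, among them Baiap2l2 and Slc38a11, expressing in CAST/EiJ alone. Of all 103 genes, 54 were expressing in CAST/EiJ or PWK/PhJ, and 34 were expressing in those strains and in no other. The stacked counts by strain show both sides.

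**Figure D2:**
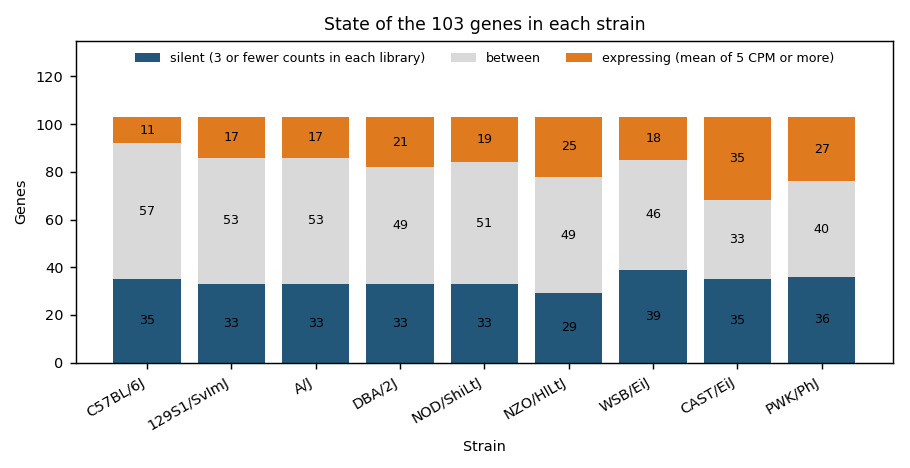
Number of the 103 genes that were silent, between or expressing in each strain. Silent genes number 29 to 39 in every strain, with 6 genes of identical counts each counted, and expressing genes range from 11 in C57BL/6J to 35 in CAST/EiJ.

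Opposite states, with a gene silent in 1 strain of a pair and expressing in the other, were counted for the 36 pairs of strains. DBA/2J and CAST/EiJ were opposite for 29 genes, the largest number, and shared only 3 silent genes. A/J was opposite to C57BL/6J, to DBA/2J and to NOD/ShiLtJ for 2 genes each, the smallest number. CAST/EiJ and PWK/PhJ were opposite for 20 genes and expressing together for 8. Pairs of strains share libraries, so these counts are a description and were not tested.

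The libraries of a strain were compared among the 8780 genes at 5 CPM in some strain. In 1063 cases a gene had 3 or fewer counts in both other libraries of a strain, and the library left out also had 3 or fewer in 918 of them (86.4%), more than 10 counts in 19, and 5 CPM in 0. The 918 cases are the 306 silent states of the rule, each seen from its 3 libraries, so this describes how often the library left out crossed the limit and is no independent support for silence. Of the 103 genes, 28 had 0 counts in all 3 libraries of a silent strain. At the edges of the rule, the lowest highest-strain means inside it were those of Trim30d (5.06 CPM) and Slc38a11 (5.24 CPM), and just outside were Snhg11 (4.97 CPM) and Pclo (4.95 CPM). On the side of silence, Slc13a2 in PWK/PhJ and Krt23 in NOD/ShiLtJ had up to 3 counts in a library, and Il1f9 and Gm8113 were just outside in CAST/EiJ with 3.005 and 3.11 estimated counts.

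The promoters of these genes were poorer in CpG than those of all genes at 5 CPM, with no test of the difference, a property the rule did not use. RefSeq promoters on GRCm38.p6, from 250 bases before to 50 after a transcription start, were matched by symbol for 72 of the 103 genes and for 7000 of the 8780 genes at 5 CPM. The ratio of observed to expected CpG, low where CG pairs have been lost and high in CpG islands, had a median of 0.343 in the silent-gene promoters and of 0.791 in all. It was under 0.6 in 73.6% of the former and in 23.9% of the latter. GC content had medians of 52.7% and 61.3%. Without the 30 genes that have a near-identical relative, described below, the median CpG ratio was 0.373 and 70.2% were under 0.6. The silent genes also reached lower levels, with a median highest strain mean of 8.67 CPM against 24.1 CPM, and the part of level in the promoter difference was not tested.

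Among those promoters, 5 are printed to show what low CpG content and the searched motifs look like in genes described below. They are the C57BL/6J reference sequence, not that of the strain in which a gene is silent or expressing. Capitals mark TATAAA, the TATA box, and GAAANNGAAA, the letters of an interferon-stimulated response element, each on either strand. TATAAA was in 13.9% of the 72 promoters, 6.73% of the 7000 and 13.6% of all 32851 RefSeq promoters of this length, and in 10.5% of the 57 promoters of genes without a near-identical relative. GAAANNGAAA was in 9.72% of the 72, 2.84% of the 7000 and 3.44% of the 32851, but in 3.51% of the 57. TTCNNNGAA, the letters of a STAT site, was in 12.5% of the 72, 6.49% of the 7000 and 8.30% of the 32851, but in 7.02% of the 57. Consensus sites of the liver factors HNF4A and CEBP, also searched, were in 0 of the 72 and in at most 0.4% of the 7000. The 7 promoters with GAAANNGAAA were those of Miox, Gm12185, Trim12c, Trim30d, Gsdma3, Tgtp1 and Tgtp2, and those of Gm12185 and Tgtp1 start 65044 and 1926 bases from the GENCODE start of the gene. A match is a description of letters in a window and no binding was measured. Ren1 (chr1:133350424-133350723, plus strand) and Acsm2 (chr7:119554090-119554389, plus strand) are shown for a TATAAA that begins 29 and 28 bases before the start, and each holds 1 CG in 300 bases. Trim30d (chr7:104507800-104508099, minus strand), Trim12c (chr7:104353300-104353599, minus strand) and Tgtp2 (chr11:49064163-49064462, minus strand) are shown for GAAANNGAAA, and they hold 1, 3 and 2 CG.
Ren1: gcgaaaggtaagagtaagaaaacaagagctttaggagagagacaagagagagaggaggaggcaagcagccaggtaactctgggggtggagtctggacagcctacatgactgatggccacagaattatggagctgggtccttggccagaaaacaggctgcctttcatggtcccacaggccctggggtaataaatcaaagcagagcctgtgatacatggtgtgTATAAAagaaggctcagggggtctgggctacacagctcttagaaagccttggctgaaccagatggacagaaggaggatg
Acsm2: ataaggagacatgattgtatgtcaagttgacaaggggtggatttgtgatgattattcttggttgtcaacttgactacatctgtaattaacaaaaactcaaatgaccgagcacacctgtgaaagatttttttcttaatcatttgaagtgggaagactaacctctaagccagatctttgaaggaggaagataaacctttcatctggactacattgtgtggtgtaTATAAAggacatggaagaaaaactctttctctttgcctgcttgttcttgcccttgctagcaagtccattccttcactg
Trim30d: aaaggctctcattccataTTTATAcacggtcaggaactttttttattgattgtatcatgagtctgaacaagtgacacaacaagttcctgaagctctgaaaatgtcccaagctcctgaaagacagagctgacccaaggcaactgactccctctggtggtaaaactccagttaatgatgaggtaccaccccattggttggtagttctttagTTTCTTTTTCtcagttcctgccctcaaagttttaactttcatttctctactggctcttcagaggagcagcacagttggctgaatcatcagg
Trim12c: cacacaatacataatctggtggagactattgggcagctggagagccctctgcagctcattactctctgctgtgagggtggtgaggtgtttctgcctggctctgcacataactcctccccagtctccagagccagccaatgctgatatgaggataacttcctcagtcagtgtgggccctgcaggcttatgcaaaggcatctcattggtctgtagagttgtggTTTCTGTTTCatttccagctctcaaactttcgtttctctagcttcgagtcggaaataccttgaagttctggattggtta
Tgtp2: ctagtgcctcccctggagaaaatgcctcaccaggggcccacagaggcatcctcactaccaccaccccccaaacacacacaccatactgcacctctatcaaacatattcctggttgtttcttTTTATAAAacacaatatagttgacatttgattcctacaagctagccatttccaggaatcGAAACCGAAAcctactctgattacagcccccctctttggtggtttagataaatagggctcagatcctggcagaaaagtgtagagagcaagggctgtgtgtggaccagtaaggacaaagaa

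Enzymes were 18 of the 103 genes, and 10 of them were expressing in CAST/EiJ or PWK/PhJ, as were 54 of all 103, while 10 were silent in CAST/EiJ, as were 35 of all 103. Akr1c18 (chr13:4132615-4150654) encodes 20-alpha-hydroxysteroid dehydrogenase, which inactivates progesterone, and was expressing in 3 strains. Its libraries measured 54.7, 68.9 and 59.5 CPM in NZO/HlLtJ, 105, 110 and 124 CPM in CAST/EiJ, and 39.6, 103 and 116 CPM in PWK/PhJ. In 129S1/SvImJ the libraries had 2, 3 and 3 counts, and the 15 libraries of the 5 strains between had 0.0726 to 0.91 CPM. The 129S1/SvImJ libraries, at 0.0737 to 0.104 CPM, lay within the range of the strains between, and the mean in CAST/EiJ was at least 1070-fold higher than 3 counts per library.

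Miox, Acpp and Nox4 show the range of patterns among enzymes. Miox (chr15:89334398-89337015) encodes myo-inositol oxygenase, the first step of inositol breakdown and best known from kidney. It measured 26.5, 36.9 and 40.3 CPM in PWK/PhJ, 0, 1 and 1 counts in A/J, and at most 0.735 CPM in the other 21 libraries. Acpp (chr9:104288251-104337748), which encodes prostatic acid phosphatase, was expressing in C57BL/6J alone, at 10.3, 18.5 and 21.1 CPM. It was silent in WSB/EiJ, NOD/ShiLtJ, DBA/2J and A/J, and a library of a strain between reached 9.11 CPM. Nox4 (chr7:87246096-87398710) encodes an NADPH oxidase that produces hydrogen peroxide, and its pattern was the reverse, with expression in 6 strains. It was silent in CAST/EiJ at 1, 0 and 1 counts. Its other 24 libraries ran from 1.54 CPM in NOD/ShiLtJ to 24.3 CPM in NZO/HlLtJ, so that only CAST/EiJ stood apart.

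Acsm2 (chr7:119554340-119600690), a medium-chain acyl-CoA synthetase of the mitochondrion, had 0 counts in all 3 WSB/EiJ libraries. It measured 13.9, 14.5 and 13.4 CPM in PWK/PhJ and 5.35, 6.28 and 5.57 CPM in DBA/2J, and up to 5.68 CPM in a library of the strains between. Ren1 (chr1:133350510-133360325), which encodes renin, the protease that starts the angiotensin cascade, had 0 counts in all 6 libraries of C57BL/6J and A/J. It measured 5.86, 6.79 and 5.21 CPM in WSB/EiJ and 4.24, 9.1 and 4.14 CPM in PWK/PhJ, a range that overlapped the highest library between, 4.47 CPM. Fam213b, a prostaglandin F synthase, was expressing in 6 strains, at 17.8, 20.4 and 21 CPM in 129S1/SvImJ, and had 1, 1 and 0 counts in CAST/EiJ. Fitm1, a protein of lipid droplet formation, was also silent in CAST/EiJ, with 0 counts in each library, and its highest mean was 6.71 ± 0.919 CPM (SD, n = 3) in NZO/HlLtJ. The remaining enzymes had highest strain means of 5.87 to 11.7 CPM.

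Of the 9 transport genes, 7 were expressing in a single strain, against 65 of all 103. Slc13a2 (chr11:78397087-78422217) encodes a sodium-coupled dicarboxylate transporter that takes up citrate and succinate, and was expressing in 5 strains. It reached 23.6, 33.9 and 34.2 CPM in WSB/EiJ and 19, 17.4 and 11.8 CPM in DBA/2J, and was silent in PWK/PhJ with 3, 0 and 0 counts. An antisense gene overlaps it, and the kit's name does not state that strand was kept. Slc28a1, a nucleoside transporter, measured 9.15, 24 and 12.3 CPM in A/J, 3, 3 and 3 counts in DBA/2J, and 1, 3 and 1 counts in NOD/ShiLtJ. A/J stood apart, since no library between was above 0.841 CPM.

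Slc4a9, a bicarbonate transporter of kidney, measured 25.2, 51.8 and 35.4 CPM in WSB/EiJ, 3, 1 and 0 counts in CAST/EiJ and at most 2.77 CPM elsewhere. Abcb1b, a P-glycoprotein that exports drugs from cells, was expressing in 129S1/SvImJ, NZO/HlLtJ and CAST/EiJ and silent in NOD/ShiLtJ. Its neighbour and relative Abcb1a is described with the neighbours. Folr2, a folate receptor carried by macrophages, measured 9.19, 6.6 and 5.3 CPM in C57BL/6J and 1, 1 and 2 counts in WSB/EiJ. The summed Kupffer markers were 181 to 287 CPM in C57BL/6J and 60.6 to 109 CPM in WSB/EiJ. They were 161 to 388 CPM in PWK/PhJ, where Folr2 lay between, and their part in the Folr2 difference was not tested.

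**Figure D3:**
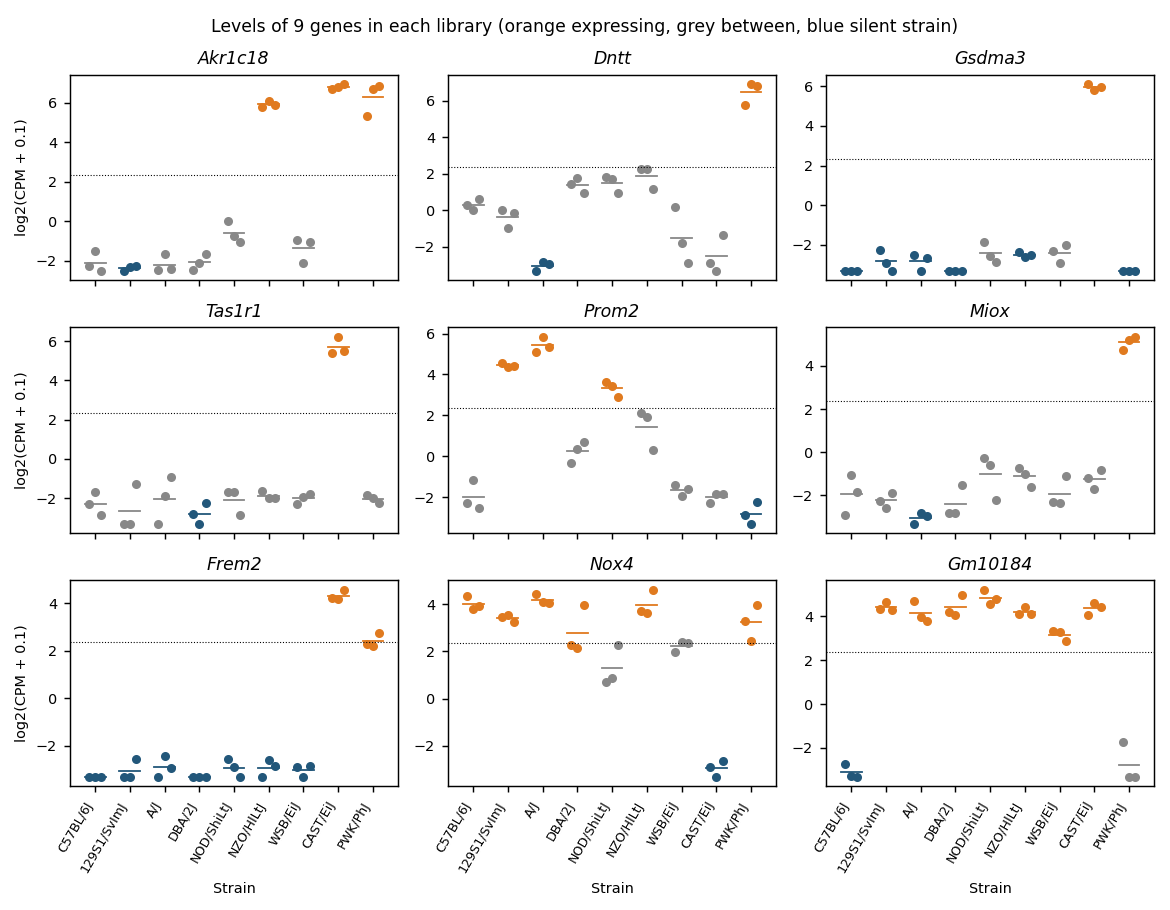
Levels of 9 genes in each library, as log2(CPM + 0.1), with a line at the mean of each strain's 3 libraries and a dotted line at 5 CPM. Orange points are expressing strains, grey strains lie between and blue strains are silent, and in Gsdma3, Tas1r1 and Miox a single strain lies above the dotted line.

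Genes of immunity were 19 of the 103, and 12 of them were silent in a single strain, as were 43 of all 103. Dntt (chr19:41029275-41059525) encodes terminal deoxynucleotidyl transferase, which adds bases at antigen receptor junctions in developing lymphocytes. It measured 54.9, 121 and 111 CPM in PWK/PhJ and 0, 1 and 1 counts in A/J, with 0 to 4.68 CPM in the other 21 libraries. Ubash3a (chr17:31207873-31246892), a suppressor of T cell receptor signalling, measured 9.08, 14.8 and 7.01 CPM in PWK/PhJ and was silent in all 8 other strains. The summed T and NK cell markers were 0.336 to 1.16 CPM in the PWK/PhJ libraries and up to 1.31 CPM in an A/J library, where both genes were silent, and their part in either gene was not tested.

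Gsdma3 (chr11:98626360-98638226), a gasdermin that forms membrane pores and is known from skin, was a CAST/EiJ gene. Its libraries measured 69.4, 55.2 and 61.6 CPM there, at least 575-fold higher than 3 counts per library. It was silent in 6 strains, with 0 counts in all 9 libraries of C57BL/6J, DBA/2J and PWK/PhJ, and at most 0.175 CPM in NOD/ShiLtJ and WSB/EiJ. Gm12355, a single-exon copy of the splicing factor gene Srsf3, lies 0.699 kb away and was also expressing in CAST/EiJ alone, at 7.55, 7.28 and 11.2 CPM.

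C1rb, a protease of the complement pathway, was expressing in CAST/EiJ, WSB/EiJ, NOD/ShiLtJ, A/J and DBA/2J, with means of 16.45 to 21.8 CPM, and was silent in PWK/PhJ. In the 3 strains between it measured at most 0.382 CPM. Its relative C1ra, 97.9% identical in coding sequence, had strain means of 152 to 551 CPM, and how reads were divided between the copies is not given in the sources used here. Raet1e, a stress ligand of the NKG2D receptor, was silent in WSB/EiJ at 3, 1.51 and 2.75 counts and highest in DBA/2J at 25, 21.2 and 15.2 CPM. Nlrp12 and Naip2, intracellular sensors of the NLR family, were silent in CAST/EiJ and PWK/PhJ respectively. Nlrp12 was highest in A/J at 20.7, 14.7 and 13.8 CPM and had 0, 3 and 1 counts in CAST/EiJ, and Naip2 measured 9.1, 7.94 and 8.72 CPM in C57BL/6J.

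Tgtp1 (chr11:48985327-48994172) and Tgtp2 (chr11:49057194-49064206), near-identical GTPases, were expressing together in NZO/HlLtJ and silent in WSB/EiJ and CAST/EiJ respectively. In NZO/HlLtJ replicate 3 both were low, at 2.9 and 2.32 CPM, against 13.2 to 26.1 CPM in its other libraries. Tgtp1 in A/J rested on 1 library, since replicate 2 measured 55.5 CPM and the others 1.7 and 2.11 CPM. Btnl9, of the butyrophilin family, lies 101 kb from Tgtp2 and was expressing in PWK/PhJ alone, at 11.1, 6.12 and 6.87 CPM, with 0 counts in each NZO/HlLtJ library and at most 2 in WSB/EiJ. The summed endothelial markers were 225 to 591 CPM in PWK/PhJ, where replicate 1 was highest in the markers and in Btnl9, 64.8 to 110 CPM in NZO/HlLtJ and 91.3 to 114 CPM in WSB/EiJ, and their part was not tested. Trim12c, of a family of antiviral TRIM proteins, was expressing in 5 strains, at 17.2, 10.7 and 18.9 CPM in DBA/2J, and silent in PWK/PhJ. Trim30d lies 117 kb from it and had the opposite state in PWK/PhJ, where it measured 4.73, 5.37 and 5.07 CPM. Ifi44 was expressing in DBA/2J alone at 6.93, 8.54 and 7.55 CPM and had 0, 1 and 0 counts in CAST/EiJ. Ifi27l2b had 0 counts in each CAST/EiJ library and at most 1 in NZO/HlLtJ, and was expressing in C57BL/6J, DBA/2J and PWK/PhJ.

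The call of Dmbt1, a secreted scavenger receptor-like protein, also rested on 1 library: NOD/ShiLtJ replicate 1 measured 21.1 CPM and the others 0.282 and 0 CPM. The summed markers of cholangiocytes, the bile duct cells, were 7.97 to 10.4 CPM in NOD/ShiLtJ, highest in replicate 1, against a median of 3.59 CPM over all libraries, and their part was not tested. Without that library and the A/J library above, 102 of the 103 genes still met the rule, and Dmbt1 did not. In all, 10 genes failed the rule when a single library was left out, among them Cd300e without PWK/PhJ replicate 1, Trim30d without PWK/PhJ replicate 2, Mybl2 without PWK/PhJ replicate 3 and Chil1 without CAST/EiJ replicate 5. Cd300e, a receptor of myeloid cells, was expressing in PWK/PhJ alone at 9.15, 2.95 and 4.81 CPM, highest in replicate 1, the library with the highest Kupffer markers, whose part was not tested. A library of a strain between reached 6.44 CPM. Ly6c1 was expressing in NZO/HlLtJ alone, at 5.84, 8.73 and 5.53 CPM, and silent in 129S1/SvImJ. Chil1, a chitinase-like secreted protein, was expressing in CAST/EiJ alone at 4.65, 5.24 and 9.05 CPM and silent in NOD/ShiLtJ, NZO/HlLtJ and WSB/EiJ.

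Receptor and signalling genes numbered 12, of which 10 were expressing in a single strain, as were 65 of all 103 genes. Tas1r1 (chr4:152027914-152038568), a subunit of the umami taste receptor, measured 42.3, 74.5 and 44.4 CPM in CAST/EiJ. It was silent in DBA/2J with 1, 0 and 3 counts and did not exceed 0.428 CPM in the other 21 libraries. Grm8 (chr6:27275119-28135178), a metabotropic glutamate receptor, was the PWK/PhJ counterpart at 17.6, 13.1 and 20.2 CPM. It had 0 counts in all 6 libraries of NOD/ShiLtJ and WSB/EiJ. Adrb3, the beta-3 adrenergic receptor of fat cells, was expressing in DBA/2J at 16.6, 15 and 10.6 CPM and had 0 counts in all 12 libraries of PWK/PhJ, CAST/EiJ, NZO/HlLtJ and WSB/EiJ.

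Camk2b, a calcium-dependent kinase best known from neurons, was expressing in A/J, DBA/2J and NOD/ShiLtJ, the last at 23.7, 26.6 and 29.6 CPM, and silent in WSB/EiJ and CAST/EiJ. Ptger3, a prostaglandin E receptor, was expressing in CAST/EiJ alone at 5.57, 6.25 and 6.46 CPM, and silent in 6 strains. Mrap2, a partner of melanocortin receptors, was expressing in DBA/2J alone at 6.28, 4.94 and 10.7 CPM. Of the 12 genes, 4 were expressing in CAST/EiJ, as were 35 of all 103. In WSB/EiJ and in 129S1/SvImJ 0 of the 12 were, where 18 and 17 of all 103 genes were, and this was not tested. Genes of identical counts taken once leave 13 in WSB/EiJ.

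Genes of cell structure and adhesion numbered 18. Prom2 (chr2:127526473-127541467), a membrane protein of epithelial protrusions, was highest in A/J at 33.9, 57.2 and 40.8 CPM, followed by 129S1/SvImJ at 23.4, 20.9 and 21.6 CPM and NOD/ShiLtJ at 12.5, 10.6 and 7.38 CPM. It was silent in PWK/PhJ with 1, 0 and 3 counts. The libraries of the 3 expressing strains did not overlap each other or the strains between, where the highest was 4.28 CPM. Krt23, a keratin, was expressing in 4 strains, highest in CAST/EiJ at 27.2, 31.3 and 17.4 CPM, and silent in NOD/ShiLtJ with 3, 1 and 3 counts.

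Frem2 (chr3:53513938-53657355), a basement membrane protein, separated CAST/EiJ and PWK/PhJ from all other strains. It measured 18.4, 17.9 and 23.6 CPM in CAST/EiJ and 4.84, 4.53 and 6.57 CPM in PWK/PhJ. No library of the other 7 strains had more than 2 counts, and C57BL/6J and DBA/2J had 0 in all 6. Wdr72 (chr9:74110356-74283308), grouped with genes of other or little-known role and needed for tooth enamel, measured 4.9, 10.2 and 7.87 CPM in 129S1/SvImJ, and no other library had more than 1 count. Baiap2l2 (chr15:79258195-79285537), a membrane-bending protein, measured 5.19, 5.62 and 6.29 CPM in CAST/EiJ, and no other library had more than 2 counts. These and Ubash3a were the 3 genes expressing in a single strain and silent in all 8 others. Of these, Baiap2l2 no longer met the rule with TMM-adjusted library sizes.

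Genes of cilia were among the structural group. Evc (chr5:37289098-37336894), a protein of the base of the primary cilium that is needed for hedgehog signalling, was expressing in DBA/2J at 18.2, 18.4 and 20.6 CPM, in NOD/ShiLtJ and in 129S1/SvImJ, and silent in CAST/EiJ with 1, 1 and 0 counts. Dnah5, a dynein of motile cilia, was expressing in CAST/EiJ alone at 9.33, 5.87 and 5 CPM and had 0 counts in all 3 PWK/PhJ libraries. Afap1, an actin filament-associated protein, was expressing in CAST/EiJ alone at 7.79, 6.46 and 5.88 CPM and silent in NZO/HlLtJ with 3, 2 and 2 counts. Igsf23 had 0 counts in all NZO/HlLtJ libraries and measured 9.46, 12 and 12.4 CPM in 129S1/SvImJ. Of the 18 structural genes, 14 had whole counts in every library, as did 56 of all 103.

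The 4 regulators were each silent in a single strain, as were 43 of all 103 genes. Tcf24, a basic helix-loop-helix factor, was expressing in 4 strains, at 25.2, 17.3 and 15.3 CPM in A/J, and had 1, 0 and 1 counts in PWK/PhJ. Cdx4, a homeobox gene of the X chromosome, was expressing in NZO/HlLtJ and CAST/EiJ and silent in A/J. Ncapg, a condensin subunit, and Mybl2, a cell cycle factor, were expressing in NZO/HlLtJ and PWK/PhJ respectively, with highest means of 6.06 ± 0.852 and 5.31 ± 1.31 CPM (SD, n = 3). Ncapg overlaps Lcorl on the other strand. Of the 103 genes, 32 overlap a gene on the other strand and 12 of these a protein-coding one, among them Ncapg, Evc, Fam213b, Dmbt1, Tgtp1 and Tgtp2. Whether counting used strand is not given in the sources used here, and without it the reads of such pairs cannot be told apart.

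Of the 103 genes, 30 had a relative with at least 90% identity over at least 80% of the coding sequence, by blastn on GENCODE coding sequences. This share was not computed for other genes. All 12 single-exon genes among the 103 had such a relative, and 6 of them are the copies with identical counts. Single-exon genes were 11.7% of the 103 and 5.11% of the 8780 genes at 5 CPM, and genes with a fractional count in some library were 45.6% and 35.7%. The counts of all 30 were fractional in at least 1 library, as estimated counts are when reads fit several genes, while 56 of the other 73 had whole counts in every library. Levels of the 30 depend on how reads were divided between copies, which the sources used here do not state. Gm13691, Gm13693, Gm13694, Gm13696, Gm13697 and Gm13698, single-exon copies within 40 kb on chromosome 2, shared the same counts after rounding. They measured 7.68, 8.23 and 8.85 CPM each in WSB/EiJ, 0.701 to 1.11 CPM in CAST/EiJ and at most 0.724 counts elsewhere. Counting identical profiles once leaves 98 genes.

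In some copies the relative was lower where the gene was expressing. Gm10184 (chr17:89908462-89910449), a single-exon copy of the nuclear import gene Kpna2 at 99.9% identity, was expressing in 7 strains and had at most 1.49 counts in C57BL/6J. Kpna2 had a lowest and a highest library of 20.2 and 24.8 CPM in C57BL/6J, 14.9 and 31 CPM in PWK/PhJ and 16.2 and 18.6 CPM in CAST/EiJ, but 2.31 CPM or less in the 6 others. Its log2 difference, expressing minus silent strains, was -4.26 (SE 0.207, edgeR adjusted p = 1.108e-13). Amd1, of polyamine synthesis, was lower where its copy Amd2 was expressing (log2 difference -1.33, SE 0.154, edgeR adjusted p = 3.181e-07). Isca1, of iron-sulfur cluster assembly, was lower where AK157302 was expressing (log2 difference -1.35, SE 0.12, edgeR adjusted p = 2.79e-09). Gm11273 lies 3.88 kb from AK157302, and both were expressing in CAST/EiJ and PWK/PhJ alone, Gm11273 with means of 28.9 ± 2.68 and 16.7 ± 5.18 CPM (SD, n = 3). Its relative Cox5b, 99.2% identical, did not pass (log2 difference 0.06, SE 0.103, edgeR adjusted p = 0.7136). Division of reads between the copies was not tested.

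In other copies the relative was higher over the strains where the gene was expressing than over those where it was silent. Mettl7a2 had a mean of 32.4 ± 0.779 CPM (SD, n = 3) in 129S1/SvImJ, where Mettl7a3 measured 9.3, 10.2 and 9.71 CPM, and 0.222 CPM over the silent strains (log2 difference 7.19, SE 0.313, edgeR adjusted p = 1.576e-14). In CAST/EiJ Mettl7a2 had a mean of 5.53 CPM, where Mettl7a3 lay between at 0.0381 CPM. Raet1d had means of 25.4 and 0.16 CPM over the expressing and silent strains of Raet1e (log2 difference 5.38, SE 0.56, edgeR adjusted p = 8.738e-08). Not all strains went this way. Raet1d measured only 0.155 to 0.367 CPM in CAST/EiJ, where Raet1e was expressing. It had a mean of 32.1 CPM in NZO/HlLtJ, where Raet1e lay between at 1.675 CPM. Il11ra2, 100% identical to Gm13305, measured 2.55 to 5.25 CPM in NOD/ShiLtJ and NZO/HlLtJ, where Gm13305 was expressing, and at most 0.201 CPM in the other strains. Of the 20 near-identical relatives that passed the filter and were not themselves of the 103 genes, 6 were higher and 5 lower in the expressing strains. Over all genes in the same contrasts 14.6% were higher and 15.4% lower.

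**Figure D4:**
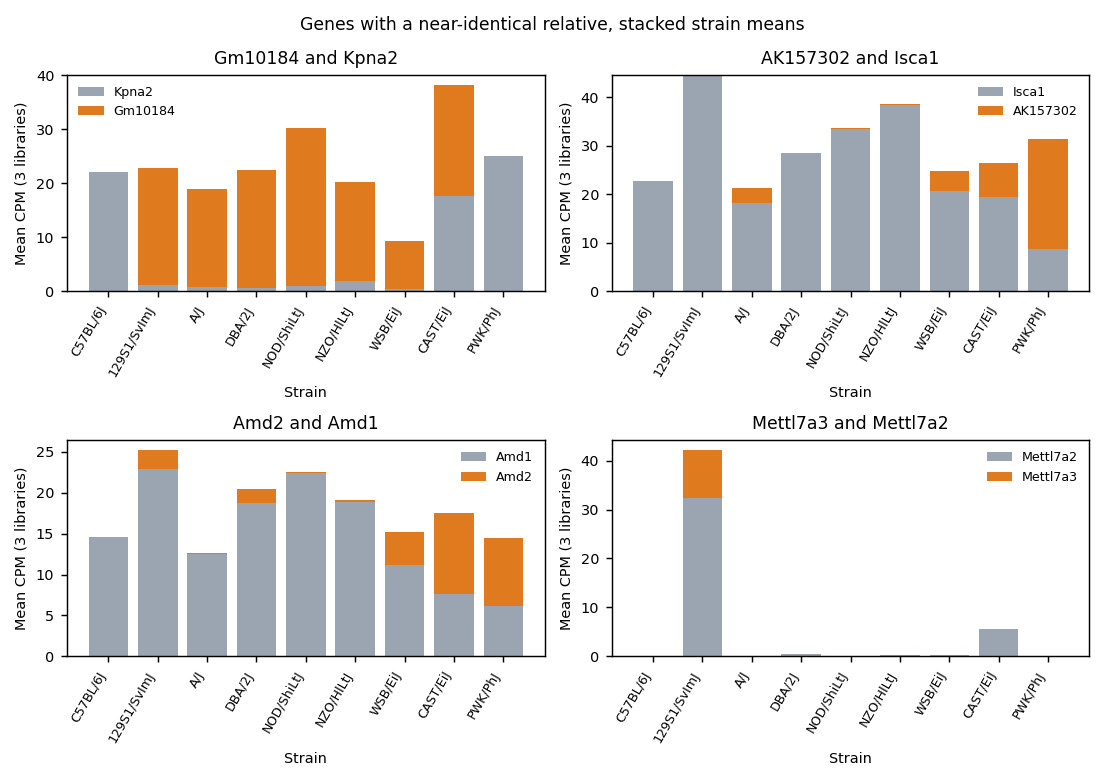
Stacked mean CPM of 3 libraries in each strain for 4 genes (orange) and their near-identical relatives (grey). Kpna2 fills the C57BL/6J and PWK/PhJ bars and Gm10184 nearly all of 6 others, while Mettl7a2 and Mettl7a3 are both highest in 129S1/SvImJ.

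The neighbouring genes were tested for a strain difference shared along the chromosome. Those that met both limits themselves, such as Gm12355 beside Gsdma3, were left out because of their levels. The shares over all genes given below were not cut in this way. The nearest protein-coding gene on each side that passed the filter, did not overlap the gene, lay within 200 kb and did not meet the rule was tested by the contrast of expressing minus silent strains in edgeR. There were 160 different pairs of a neighbour and a contrast, for 98 of the 103 genes. Of these 45 were higher in the strains where the silent gene was expressing (28.1%) and 15 lower (9.38%), at an adjusted p under 0.05. Over all genes in the same contrasts 14.8% were higher and 14.5% lower. Some neighbours enter with 2 contrasts, strains are shared between contrasts, and 100 pairs did not pass. Of the 45 higher pairs, 8 had at most 3 counts in every library of the silent strains, so those neighbours passed the filter through other strains and their fitted differences have no fixed size. Among the 147 pairs with more than 3 counts in some library of both the expressing and the silent strains, 37 were higher (25.2%) and 14 lower (9.52%), and over all such genes 14.6% were higher and 14.1% lower. Those 37 had a median log2 difference of 1.98 and ran from 0.41 to 7.20, while all 15 lower ones had a median of -0.72.

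**Figure D5:**
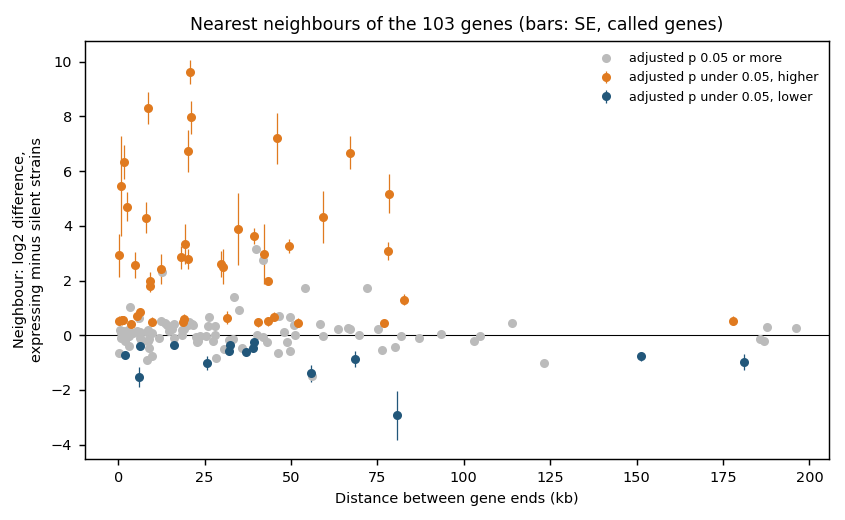
Log2 difference of each of the 160 neighbours, expressing minus silent strains, against its distance from the gene in kb. Orange neighbours were higher and blue ones lower at an edgeR adjusted p under 0.05, grey ones did not pass, and bars are standard errors of the called ones. Of the 160, 45 are orange and 15 blue, and 8 of the orange ones are fitted against silent strains with at most 3 counts in every library.

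Evc2, the partner of Evc at the cilium base, lies 1.61 kb away. It measured 10.3 to 11.1 CPM in DBA/2J, 6.07 to 9.06 CPM in NOD/ShiLtJ and 2.69 to 3.55 CPM in 129S1/SvImJ, and 0 to 0.137 CPM in CAST/EiJ (log2 difference 6.35, SE 0.623, edgeR adjusted p = 1.454e-08). Like Evc it was low in A/J, WSB/EiJ and PWK/PhJ too. Gsdma2, 8.53 kb from Gsdma3, measured 1.25 to 2.08 CPM in CAST/EiJ and at most 0.0372 CPM in any other library, and no fold is given against libraries so near 0. On the other side of Gsdma3 and Gm12355, Ormdl3, a regulator of sphingolipid synthesis, was lower in CAST/EiJ (log2 difference -0.46, SE 0.147, edgeR adjusted p = 0.01556), a call that was lost with a replicate block (adjusted p = 0.1434) and in some fits that left out a library (adjusted p up to 0.0738). In the contrast of Gm12355, with other silent strains, Ormdl3 was also lower (log2 difference -0.62, SE 0.149, edgeR adjusted p = 0.001858), and that call held with the block (adjusted p = 0.03408).

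A4gnt and Dzip1l lie 7.13 kb apart on chromosome 9 and were both expressing in NZO/HlLtJ. A4gnt, which builds a sugar of gastric mucin, measured 6.3, 6.61 and 14.5 CPM there and 5.05, 5.89 and 4.51 CPM in PWK/PhJ. Dzip1l, a protein of the cilium base, measured 7.63, 8.1 and 8.94 CPM. Their neighbour Cldn18, a claudin of stomach and lung, was read in those strains alone, at 0.434 to 0.708 CPM in NZO/HlLtJ and 0.261 to 0.737 CPM in PWK/PhJ, with 0 in the other 21 libraries. Its edgeR call with A4gnt was lost with DESeq2 (adjusted p = 0.1975), and that with Dzip1l in an alternative fit (adjusted p up to 0.3573). No fold is given against libraries at 0. Dbr1, on the other side, was higher in the contrast of Dzip1l (log2 difference 0.67, SE 0.17, edgeR adjusted p = 0.005156), a call lost in a fit that left out a library (adjusted p up to 0.0544), and did not pass in that of A4gnt (edgeR adjusted p = 0.06687).

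Other genes had a neighbour on one side that was higher with them. C1s2, a complement protease 43.5 kb from C1rb, had a mean of 34.2 CPM over the expressing strains and 8.94 CPM in PWK/PhJ (log2 difference 1.99, SE 0.159, edgeR adjusted p = 3.87e-10). In the 3 strains where C1rb lay between, C1s2 measured 0.0682 to 0.24 CPM. Abcb1a was lower in NOD/ShiLtJ, where Abcb1b was silent, at 1.06 to 1.89 CPM against 9.61 to 49.9 CPM in the other strains (log2 difference 3.26, SE 0.244, edgeR adjusted p = 3.719e-10). Myadm, beside Nlrp12, measured 1.47 to 2.9 CPM in CAST/EiJ and 5.29 to 33.5 CPM in the others (log2 difference 3.64, SE 0.296, edgeR adjusted p = 5.306e-10). Acsm1, beside Acsm2, measured 143 to 180 CPM in WSB/EiJ and 220 to 418 CPM in the others (log2 difference 0.86, SE 0.131, edgeR adjusted p = 2.277e-05). The neighbours on the other side did not pass: C1s1 beside C1rb at 0.01 (edgeR adjusted p = 0.9751), Abcb4 beside Abcb1b at -0.19 (edgeR adjusted p = 0.4056) and Acsm5 beside Acsm2 at -0.12 (edgeR adjusted p = 0.545).

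The neighbours of Prom2, Miox and Tas1r1 did not pass, with log2 differences of -0.13 to 0.36 except Zbtb48, beside Tas1r1, at -0.65 (SE 0.296, edgeR adjusted p = 0.09479). Elsewhere the neighbours were mixed. Akr1c14, beside Akr1c18, had a log2 difference of -0.05 (SE 0.186, edgeR adjusted p = 0.8979), and Akr1c13 on the other side was higher at 0.48 (SE 0.162, edgeR adjusted p = 0.04002), a call lost with a replicate block (adjusted p = 0.09618) and in fits that left out a library (adjusted p up to 0.1881). Blnk, an adaptor of B cell receptor signalling 34.7 kb from Dntt, was higher in PWK/PhJ, at 0.261 to 0.295 CPM, than in A/J, at 0 to 0.0285 CPM (edgeR adjusted p = 0.02748), a call lost in some fits that left out a library (adjusted p up to 0.0856). In the strains where Dntt lay between it ran from 0 to 1.13 CPM. Tm9sf3, 151 kb away on the other side, was lower (log2 difference -0.77, SE 0.153, edgeR adjusted p = 0.0003919). Both neighbours of Frem2 had differences of under 0.6 in size, Proser1 at -0.57 (SE 0.11, edgeR adjusted p = 0.0001997) and Ufm1 at 0.25 (SE 0.121, edgeR adjusted p = 0.09925).

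Of 26 loci listed as varying between strains, 3 were of the 103 genes, Nox4, Gsdma3 and Acpp, and 23 were not. These 3 were put on the list with earlier results of these data known, so their overlap is no independent finding. Of the 26, 7 were expressing in every strain and 3 silent in every strain. Nnt, which lacks exons in C57BL/6J, was lowest there but still at 35.7 CPM, and Hc, the complement C5 gene, was lowest in NOD/ShiLtJ at 205 CPM.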

How the data were processed

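Poly-A RNA of hepatocytes from 9 strains was sequenced in 27 libraries (TruSeq RNA v2, per the labels' protocols). The authors deposited estimated counts (expected counts) per Ensembl gene; the aligner and the counter are not given in the sources used here. The submitters' processing notes name GRCm38, mm10, FastQC 0.11.5 and DESeq2 without a role. CPM was computed as count over library total, unadjusted, and a value was taken as not whole when it lay over 0.01 from a whole number. Symbols, gene types and coordinates came from GENCODE M21 (GRCm38). Neighbours and relatives were tested on rounded counts with edgeR 4.0.16 under R 4.3.3 (quasi-likelihood, TMM factors of 0.722 to 1.226, filterByExpr leaving 14482 genes, all strains in 1 fit, Benjamini-Hochberg adjustment over all genes), tested on simulated data; DESeq2 1.42.0 was an alternative. Relatives were found with blastn 2.17.0 on coding sequences (planned: protein sequences, not used here). P-values measure the spread between the labelled replicates.

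The genes, their roles, the marker list and the list of known strain loci were chosen with earlier results of these data known. Genes named in the text are the 20 with the highest strain mean that have a named symbol, for each strain the highest gene silent there alone and the highest expressing there with the 8 others silent, those at the thresholds or within 200 kb of each other, and, in part, their neighbours and relatives and the known strain loci, the rest of which are given as counts. Further genes were named after their values were seen, and 67 of the 103 are named in all. Some items are not reported here. Alternatives changed the thresholds, the scaling, the filter, the tool and the libraries. Intervals and floors of 3 counts cover counting error only.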

Additional observations from a re-analysis of the deposited data

How the results depend on the processing

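The number of silent genes followed the limits of the rule and hardly any other choice. It was 103 with the limits given, 228 with a mean of 2 CPM or more, 45 with 10 CPM or more, 28 with 0 counts in every silent library and 192 with 10 or fewer counts. TMM-adjusted library sizes gave 98, with 6 of the 103 genes lost, among them Baiap2l2, Slc38a11 and Trim30d. The lowest library at 5 CPM gave 83, keeping all symbols gave 112 and rounded counts gave 106. Leaving out each library in turn gave 102 to 112. The share of left-out libraries under the limit, which uses the counts the rule used, was 86.4% at 3 counts and 89.8% at 10 counts.

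Of the neighbours 45 were higher and 15 lower. With a replicate block 38 were higher and 13 lower, against 11.15% and 10.97% of all genes in the same contrasts. Of the near-identical relatives 6 were higher and 5 lower, as without the block, against 10.7% and 11.52% of all genes. Deviations of same-numbered libraries of different strains had a median correlation of 0.0203 (76 pairs, -0.3045 to 0.2885). For other numbers the median was -0.0044 (248 pairs, -0.4799 to 0.3466). Such medians cannot exclude that some same-numbered libraries shared a batch. With DESeq2 44 and 15 neighbours, and 6 and 6 relatives, were called. The other planned settings, leaving out a library included, kept both neighbour counts within 1.5 times; neighbours within 50 kb numbered 37 higher and 10 lower of 122. Relatives from 70% identity gave 10 higher, in place of 6, and 6 lower, of 29 tested. Alternatives chosen after seeing the data: neighbours with whole counts in every library, 24 higher and 6 lower of 93; neighbours other than the closest relative, 39 and 15 of 146; neighbours above 3 counts in both groups of strains, 37 and 14 of 147; 0.1 CPM in place of 3 counts, 87 genes.

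Depth limits silence: 3 counts are worth up to 0.176 CPM, and lower levels cannot be told from silence.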

Other observations

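Some other gene types met the same limits more often than protein-coding genes, of which 112 of 9187 did (1.22%, all symbols kept). Of 207 processed pseudogenes with a strain mean of 5 CPM or more, 118 were silent in another strain, as were 9 of 47 lincRNA genes and 6 of 31 unprocessed pseudogenes, while in 6 types with at most 3 such genes each none was. These shares were not tested. Processed pseudogenes are copies made from the RNA of other genes, and how reads were divided between copies was not tested.

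Ctse, the gut protease cathepsin E and the closest relative of Ren1 by sequence (78.4% identity over 9% of the coding sequence), was higher over WSB/EiJ and PWK/PhJ than over C57BL/6J and A/J, where Ren1 is silent (log2 difference 5.89, SE 0.254, edgeR adjusted p = 8.392e-15). Its libraries ran from 67.4 to 98.1 CPM in 129S1/SvImJ, from 44.3 to 68.8 CPM in WSB/EiJ and from 37.3 to 52 CPM in DBA/2J, but only from 3.54 to 6.3 CPM in PWK/PhJ. They ran from 0.0855 to 0.234 CPM in A/J, from 0.244 to 0.664 CPM in C57BL/6J and from 0.154 to 0.595 CPM in NOD/ShiLtJ.

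Ly6a, a neighbour of Ly6c1 and a gene induced by interferon, ran from 24.4 to 114 CPM in NZO/HlLtJ and from 0.035 to 1.18 CPM in PWK/PhJ. A library of A/J stood at 53.8 CPM, against 7.47 and 7.48 CPM in the others.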
